A study of Drosophila melanogaster with 6 samples.

Results

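Genes whose symbol in the platform annotation starts with Cyp and a digit were followed in embryos that lack CrebA. The rule matched 83 genes of 11982, each read from 1 probe set that names no other gene, the brightest on average where a gene had several. Of these, 2 genes, Cyp1 and Cyp40, encode cyclophilins, which share the prefix but not the chemistry, and the other 81 encode cytochromes P450. RNA came from whole Drosophila melanogaster embryos of 2 genotypes, CrebA null mutant and wild type, with 3 samples of each hybridised to Affymetrix Drosophila Genome 2.0 arrays. CrebA encodes a bZIP transcription factor, and the study is titled for its action on genes of the secretory pathway. Collections lasted 8 h and embryos were aged for 11 h more, which the labels place at stages 11 to 15 in one field and 11 to 17 in another. All embryos passed through a COPAS sorter, an instrument for whole embryos, and mutants were taken as those without GFP from the balancer chromosome. The mutant allele and the wild-type strain are not given in the labels. A difference in genetic background between the genotypes therefore cannot be told apart from the loss of CrebA. No label says that the replicates were separate collections, so the p-values rest on differences among samples that may be technical repeats.

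Cytochromes P450 are haem-containing monooxygenases that insert an oxygen atom into lipophilic substrates. In insects they make and break down the moulting hormone, produce the hydrocarbons that waterproof the cuticle, and oxidise plant toxins and insecticides. Most sit in the membrane of the endoplasmic reticulum (ER) and take electrons from a reductase, while those of the mitochondrial clan use a ferredoxin. Genes of recent origin often lie side by side as tandem copies.

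The deposited values are on a log2 scale and ran from 2.81 to 14.53. The number of arrays limits the precision. The array carries 17 Tag controls, probe sets for sequences the fly does not have, and the brightest lay between 4.71 and 5.28 on the 6 arrays. A P450 gene at or below that control on an array is described here as within the controls there. The level of CrebA itself was not analysed here. Replicate 2 stood apart in both genotypes. Among the 81 P450 genes it was the highest of the 3 replicates in both genotypes for 26 genes (32.1%, against 38.6% of all genes) and the lowest in both for 20 (24.7%, against 24.1%).

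Single P450 genes differed between CrebA null mutants and wild type in both directions, led by rises of Cyp9b2, Cyp49a1 and Cyp309a1. By limma, a linear model fitted over all probe sets, 4 of the 81 genes rose and 1 fell at an adjusted p under 0.05, while 76 were not called. At an unadjusted p under 0.05 there were 32 of the 81 P450 genes, against 2115 of all 11982 genes (17.7%). Rises made up 4.94% of the P450 genes, against 1.90% of all 11982 genes, and the fall made up 1.23%, against 1.02%. The median log2 change was 0.04 over the P450 genes and -0.02 over all genes. The changes ran from -1.10 for Cyp4e1 to 1.52 for Cyp9b2, with 47 positive and 34 negative. The mutant values lay wholly above the wild-type values for 20 genes (24.7%, against 10.9% of all genes) and wholly below them for 13 (16.0%, against 10.2%). In RNA from whole embryos, fewer cells of a type and less RNA per cell cannot be told apart.

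The titles number the replicates 1 to 3 in both genotypes, and a fit that took this number as a block called many more genes. With the block 21 P450 genes rose (25.9%, against 12.6% of all genes) and 9 fell (11.1%, against 9.21%). These included all 5 genes called without it, and array weights with no block called 26 of the same 30 genes. Without replicate 2 of either genotype, 9 rose and 2 fell with no block, and 19 rose and 9 fell with it. Of the 21 genes that rose with the block, 10 had replicate 2 as the lowest in both genotypes (47.6%, against 24.1% of all genes). Over all genes above the controls on every array of at least 1 genotype, this share was 29.3%. For 3 of the 21 replicate 2 was the highest in both (14.3%, against 38.6% of all genes and 40.2% of those above the controls). Of the 9 genes that fell with the block, replicate 2 was the lowest in both for 1 and the highest for 4. The part of the replicates in these calls was not tested.

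**Figure D1:**
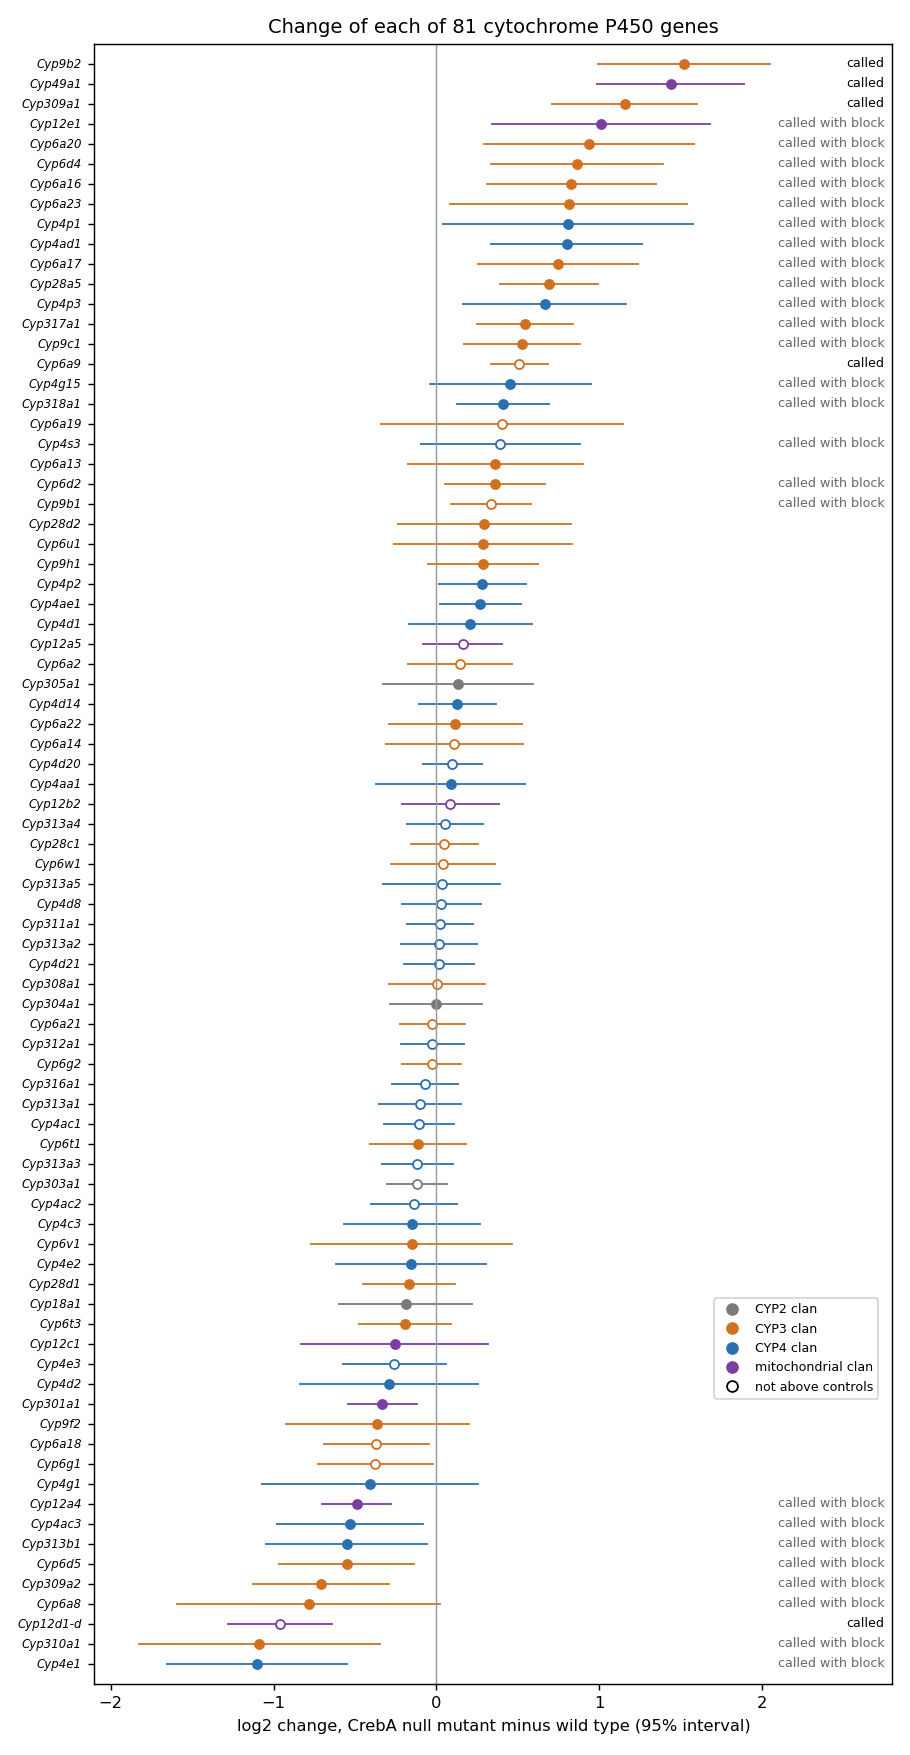
The log2 change of each of 81 P450 genes, CrebA null mutant minus wild type, with its 95% interval from limma (n = 3 arrays per genotype), sorted by size and coloured by clan. Filled points were above the highest foreign control on every array of at least 1 genotype. The 5 genes called without a block are marked called, and the others of the 30 called with it are marked called with block.

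The rises above the controls were those of Cyp9b2, Cyp49a1 and Cyp309a1. Cyp9b2, of the CYP3 clan, had log2 values of 7.77, 7.59 and 8.06 in CrebA null mutants, against 6.20, 5.97 and 6.69 in wild type. The genotypes did not overlap, and the lowest mutant array was well above the highest wild-type array. Cyp9b2 rose 2.87-fold (log2 change 1.52, SE 0.22, 95% interval 0.99 to 2.05, limma adjusted p 0.0291).

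Cyp49a1 encodes a P450 of the mitochondrial clan. Its log2 values were 9.37, 9.04 and 9.72 in mutants and 7.91, 7.81 and 8.10 in wild type. Every mutant array was above every wild-type array, and the mutants varied more (SD 0.34) than wild type (SD 0.14). The rise was 2.71-fold (log2 change 1.44, SE 0.19, limma adjusted p 0.0234).

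Cyp309a1, also of the CYP3 clan, had values of 7.49, 7.63 and 7.998 in mutants, against 6.29, 6.79 and 6.56 in wild type. The ranges did not overlap, and the rise was 2.23-fold (log2 change 1.16, SE 0.18, limma adjusted p 0.0381). Quantile normalization ended this call (limma adjusted p 0.0628) with a log2 change of 1.12.

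With 1 array fewer most of these calls were lost, while the changes stayed about as large. Without wild type replicate 3 Cyp9b2 stayed under the threshold (limma adjusted p 0.0422), while leaving out any of the other 5 arrays gave adjusted p-values of 0.0547 to 0.141. Cyp49a1 stayed under it without CrebA null mutant replicate 2 (0.0306) and not without any other array (0.0560 to 0.119). Cyp309a1 stayed under it without wild type replicate 2 (0.0490) and not without any other array (0.0907 to 0.147). The log2 changes themselves stayed between 1.36 and 1.72 for Cyp9b2, between 1.27 and 1.60 for Cyp49a1 and between 1.01 and 1.28 for Cyp309a1. With the replicate block their adjusted p-values were 6.5e-04, 8.5e-04 and 0.00258.

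**Figure D2:**
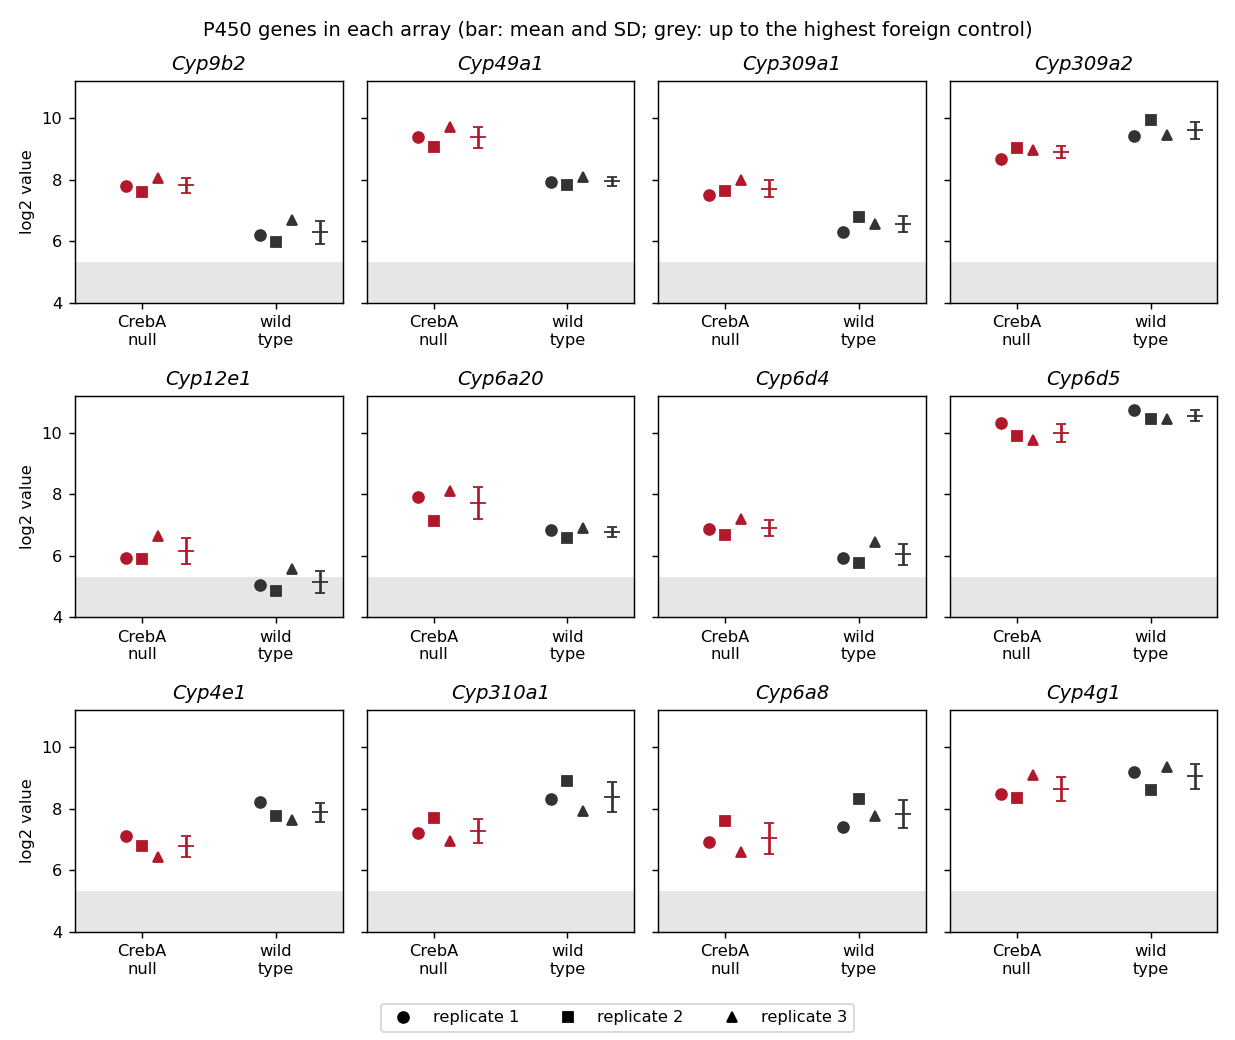
Log2 values of 12 P450 genes on each array, CrebA null mutant (red) left of wild type (black), with the replicate number as the symbol and the mean and SD beside the points. Grey marks levels up to 5.28, the highest foreign control on any array. Cyp9b2, Cyp49a1 and Cyp309a1 are higher in all mutants, Cyp4e1, Cyp310a1, Cyp309a2 and Cyp6d5 are lower in all mutants, and Cyp6a8 and Cyp4g1 overlap.

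The remaining calls lay within the foreign controls on all 6 arrays, so no fold is given for them. Cyp6a9 averaged 3.94 ± 0.03 in mutants and 3.43 ± 0.04 in wild type (log2, SD, n = 3, limma adjusted p 0.0292). Cyp12d1-d, one of a pair of nearly identical neighbours linked to insecticide resistance, averaged 3.33 ± 0.15 in mutants and 4.29 ± 0.18 in wild type (log2, SD, n = 3, limma adjusted p 0.0267). Its copy Cyp12d1-p was not analysed here, and whether the probe set reads both was not tested. Leaving out any single array ended the call of Cyp6a9 (limma adjusted p 0.0560 to 0.156), and so did scaling on array medians (0.0644). For Cyp12d1-d it held without wild type replicate 2 (0.0292), and leaving out any of the other 5 ended it (0.0708 to 0.120).

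Other P450 genes missed the threshold with all arrays and no block and passed with the replicate block. Those higher in mutants included Cyp28a5 and Cyp9c1 of the CYP3 clan, named after their values were seen like the others of this kind that the naming rule did not pick. Cyp28a5 had log2 values of 8.42, 8.39 and 8.57 in mutants, against 7.58, 7.75 and 7.97 in wild type, with no overlap (log2 change 0.69, SE 0.12, limma adjusted p 0.0521 without the block and 0.00359 with it). Cyp9c1 averaged 8.48 ± 0.12 in mutants and 7.95 ± 0.25 in wild type (log2, SD, n = 3).

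Cyp6a20, known for its effect on aggression in adult males, had values of 7.91, 7.12 and 8.09 in mutants, against 6.84, 6.58 and 6.90 in wild type. Replicate 2 was the lowest array in both genotypes, and the lowest mutant was still above the highest wild-type array. Its log2 change was 0.94 (SE 0.26, limma adjusted p 0.165 without the block and 0.00729 with it). Without CrebA null mutant replicate 2 it passed without a block (limma adjusted p 0.0383) with a log2 change of 1.23. It did not pass without any other single array (limma adjusted p up to 0.462), where the log2 change was as low as 0.74.

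Cyp12e1, of the mitochondrial clan, had values of 5.92, 5.89 and 6.65 in mutants, against 5.04, 4.84 and 5.55 in wild type. One wild-type array was within the controls, so the change is measured from a level near the background. The log2 change was 1.01 (SE 0.27, limma adjusted p 0.149 without the block and 0.00118 with it). A second probe set of Cyp12e1 gave a log2 change of 1.05 (SE 0.30), with all 3 wild-type arrays within the controls.

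Cyp6d4, of the CYP3 clan, had values of 6.86, 6.67 and 7.18 in mutants, against 5.91, 5.77 and 6.44 in wild type. Replicate 3 was the highest and replicate 2 the lowest in both genotypes, and the differences within numbers were 0.95, 0.91 and 0.74. The log2 change was 0.87 (SE 0.22, limma adjusted p 0.122 without the block and 0.00168 with it). Cyp6d2 had a smaller change of 0.36 (SE 0.13), called with the block (0.0281).

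The others above the controls that rose with the block were Cyp6a16, Cyp6a23, Cyp4p1, Cyp4ad1, Cyp6a17, Cyp4p3, Cyp317a1, Cyp4g15 and Cyp318a1, with log2 changes of 0.41 to 0.83. Cyp6a16 had values of 7.09, 7.51 and 7.04 in mutants, against 6.25, 6.77 and 6.12 in wild type. Replicate 2 was the highest array of Cyp6a16 in both genotypes, the reverse of Cyp6a20. Cyp6a17, known for a role in temperature preference, lay within the controls on all 3 wild-type arrays and was at least 1.34-fold higher in mutants. Cyp318a1, Cyp317a1 and Cyp4p3 were above the controls on 1 of 3 wild-type arrays and Cyp4p1 on 2. Cyp9b1 and Cyp4s3, which also passed with the block, were not above the controls on every array of either genotype.

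Lower levels in mutants were led by Cyp4e1 and Cyp310a1, both called with the block and, with all arrays weighted equally, not without it. Cyp4e1, of the CYP4 clan, had log2 values of 7.11, 6.80 and 6.43 in mutants, against 8.23, 7.77 and 7.65 in wild type. The ranges did not overlap, and the change was -1.10 (SE 0.23, limma adjusted p 0.0738 without the block and 0.00101 with it).

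Cyp310a1 had values of 7.21, 7.71 and 6.95 in mutants, against 8.31, 8.90 and 7.91 in wild type. Replicate 2 was the highest array in both genotypes, and within each number the mutant was lower by about the same amount, with differences of -1.10, -1.19 and -0.97. The change was -1.09 (SE 0.30, limma adjusted p 0.159 without the block and 9.8e-04 with it).

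Cyp6d5, also of the CYP3 clan, was among those that fell with the block. It had values of 10.30, 9.90 and 9.76 in mutants, against 10.75, 10.43 and 10.45 in wild type. The highest mutant lay just below the lowest wild-type array, and the change was -0.55 (SE 0.17, limma adjusted p 0.202 without the block and 0.00743 with it). Cyp6d4 and Cyp6d2, of the same subfamily, were higher in mutants.

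Cyp6a8, a gene induced by barbiturates and caffeine in flies, overlapped between genotypes. Its values were 6.93, 7.60 and 6.60 in mutants, against 7.39, 8.32 and 7.77 in wild type, and it was called with the block (limma adjusted p 0.0143) and not without it (0.377). Cyp313b1, Cyp4ac3 and Cyp12a4, the last linked to lufenuron resistance, had changes of -0.55, -0.53 and -0.49. Cyp12a4 had the lowest adjusted p of the 3 without the block (limma, 0.0508), with levels close to the controls (4.86 ± 0.06 in mutants and 5.35 ± 0.10 in wild type, log2, SD, n = 3). It passed with no block under averaged probe sets (limma adjusted p 0.0492), a trended robust variance (0.0373) and array weights (0.00869). It did not pass with a filter on dim probe sets, either scaling or fewer arrays (0.0546 to 0.186).

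Cyp18a1 and Cyp301a1 were not called in either fit. Cyp18a1, which inactivates the moulting hormone by 26-hydroxylation, had values of 9.92, 9.46 and 10.09 in mutants, against 10.07, 9.98 and 9.98 in wild type. The genotypes overlapped, the change was -0.19 (95% interval -0.60 to 0.22, limma adjusted p 0.753), and a second probe set gave -0.12 (SE 0.19). Cyp301a1, which acts in formation of the adult cuticle, averaged 8.96 ± 0.09 in mutants and 9.30 ± 0.07 in wild type (log2, SD, n = 3). Its ranges did not overlap, yet the change of -0.33 was not called (SE 0.09, limma adjusted p 0.135 without the block and 0.0503 with it).

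Cyp4g1, the oenocyte enzyme that makes cuticular hydrocarbons, had values of 8.47, 8.36 and 9.10 in mutants, against 9.20, 8.60 and 9.35 in wild type. Ranges overlapped, and the change of -0.41 was not called (95% interval -1.07 to 0.25, limma adjusted p 0.638 without the block and 0.0684 with it). Cyp4g15, the other 4G gene, which is expressed in the nervous system, averaged 5.99 ± 0.29 in mutants and 5.53 ± 0.28 in wild type (log2, SD, n = 3). It passed with the block (limma adjusted p 0.0118) and not without it (0.413). Whether the changes of Cyp4g1 and Cyp4g15 differ was not tested.

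Cyp304a1, Cyp4e2 and Cyp9f2, named for their high mean signal, were not called in either fit. Cyp304a1 averaged 9.65 ± 0.18 in mutants and 9.65 ± 0.09 in wild type (log2, SD, n = 3), and its change had a 95% interval of -0.28 to 0.28. Cyp4e2 averaged 9.32 ± 0.23 in mutants and 9.48 ± 0.29 in wild type, and Cyp9f2 8.81 ± 0.21 in mutants and 9.18 ± 0.42 in wild type.

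Several P450 genes best known from adult flies lay at the background here. Cyp6a2 (a detoxification enzyme), Cyp303a1 (required for normal bristles) and Cyp4d21 (a sex-specific enzyme of the adult head) were within the controls on all 6 arrays. Cyp6g1, whose overexpression gives DDT resistance, was above them on 1 wild-type array, and its neighbour Cyp6g2 on 1 mutant array. In all, 50 of the 81 P450 genes (61.7%, against 73.0% of all genes) were above the controls on every array of at least 1 genotype, 23 were within them on all arrays and 8 lay between. On single arrays 50 to 56 P450 genes were above the controls in mutants and 42 to 49 in wild type. The controls themselves lay at 4.71 to 4.93 on mutant arrays and at 4.81 to 5.28 on wild-type arrays.

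**Figure D3:**
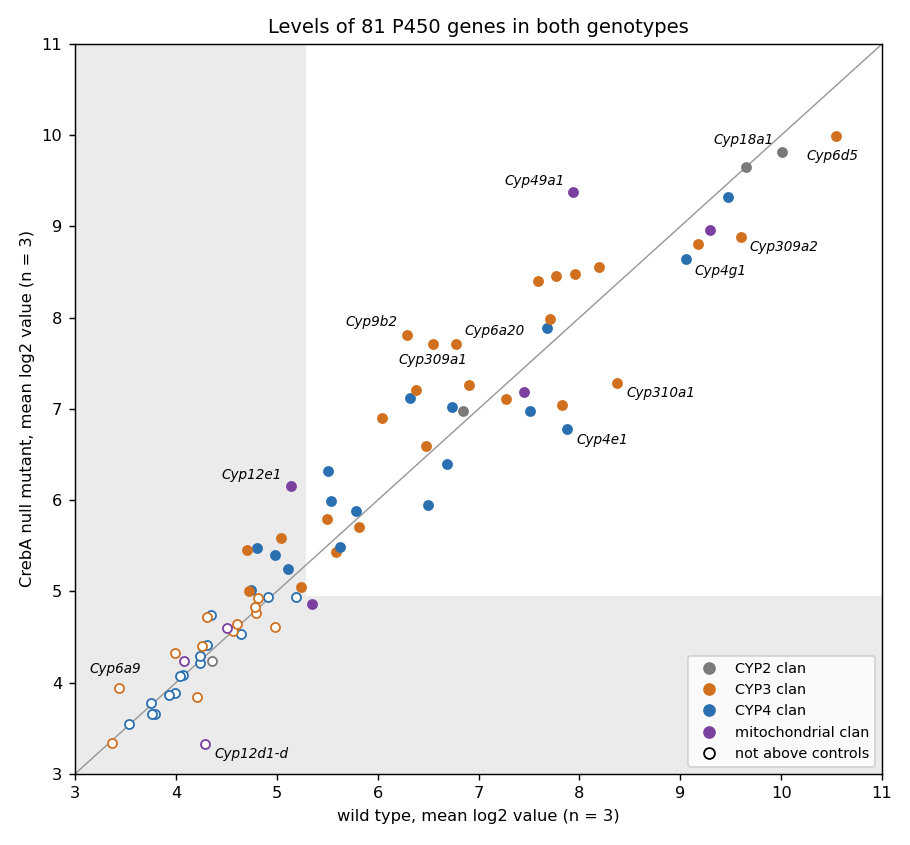
Mean log2 value of each of 81 P450 genes in CrebA null mutants (vertical axis) against wild type (horizontal axis), n = 3 arrays each, coloured by clan. The line marks equal levels and grey marks levels up to the highest foreign control of that genotype. Cyp49a1 and Cyp9b2 stand above the line, Cyp4e1 and Cyp310a1 below it, and Cyp18a1 close to it.

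By clan, the genes risen without the block were of the CYP3 and mitochondrial clans. The CYP3 clan, which holds the Cyp6, Cyp9, Cyp28 and Cyp309 families, had 37 genes (median log2 change 0.14). Limma called 3 of them risen (8.11%, against 1.90% of all genes) and 0 fallen (against 1.02%). At an unadjusted p under 0.05 there were 18 of the 37, against 2115 of all 11982 genes (17.7%). With the block the CYP3 clan had 13 risen (35.1%, against 12.6% of all genes) and 4 fallen genes (10.8%, against 9.21%). The mitochondrial clan had 8 genes with 1 risen and 1 fallen, and 2 of each with the block (median -0.09). The gene fallen without the block, Cyp12d1-d, lay within the controls on all arrays. Of the 32 CYP4 clan genes limma called 0, with 9 at an unadjusted p under 0.05 (median 0.02). The block called 6 of them risen (18.8%, against 12.6% of all genes) and 3 fallen (9.38%, against 9.21%). Of the 4 CYP2 clan genes, among them Cyp18a1, 0 were called with or without the block and 0 had an unadjusted p under 0.05 without it (median -0.06). Differences between clans were not tested, and 12 of the 32 CYP4 clan genes were within the controls on all arrays, against 7 of the 37 CYP3 clan genes.

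Some neighbouring P450 genes were called in opposite directions. Genes separated by at most 3 other protein-coding genes in the RefSeq order (Release 6) formed 15 groups with 44 of the 81 genes. With the block, 3 of the 15 groups held both risen and fallen members, 5 held called genes in 1 direction, and 7 held no called gene. Over all genes the block called 12.6% risen and 9.21% fallen, and groups of other neighbouring genes were not counted. None of the 81 probe sets carries the suffix that Affymetrix gives to sets matching several genes, but cross-hybridisation between close copies was not tested.

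Cyp309a1 and Cyp309a2 are neighbours whose levels differed in opposite directions. Cyp309a2 had log2 values of 8.67, 9.02 and 8.97 in mutants, against 9.41, 9.92 and 9.46 in wild type. All mutant arrays were lower, whereas those of Cyp309a1 were all higher. The change of Cyp309a2 was -0.71 (SE 0.17, limma adjusted p 0.113 without the block and 0.00615 with it). The changes of the pair differed by 1.86 (log2). This is given only as a description and no test of it is used, since the pair is described for its opposite directions.

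A second such group held Cyp4ad1, Cyp4e2 and Cyp4e1. Cyp4ad1 had values of 7.06, 6.95 and 7.36 in mutants, against 6.13, 6.16 and 6.68 in wild type, and rose with the block (log2 change 0.80, SE 0.19, limma adjusted p 0.106 without it and 0.00237 with it). Cyp4e1 fell with the block, and Cyp4e2 between them was not called (change -0.16, 95% interval -0.61 to 0.30).

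The largest group held 9 genes, Cyp6a22, Cyp6a17, Cyp6a23, Cyp6a19, Cyp6a9, Cyp6a20, Cyp6a21, Cyp6a8 and Cyp317a1 in gene order. With the block 5 of them rose (against 12.6% of all genes), namely Cyp6a17, Cyp6a23, Cyp6a9, Cyp6a20 and Cyp317a1. Cyp6a8 fell (against 9.21%) and 3 were not called. Of those that rose, Cyp6a9 lay within the controls on all arrays. The median log2 change of the group was 0.51, within a range of -0.78 to 0.94. Cyp6a23 had values of 8.41, 7.92 and 8.89 in mutants, against 7.56, 7.22 and 7.99 in wild type. Its genotypes overlapped, with replicate 2 lowest in both.

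Cyp9b1 and Cyp9b2 form a pair of a different kind, since both passed with the block in the same direction. Cyp9b1 was within the controls on all 6 arrays, at 4.33 ± 0.13 in mutants and 3.99 ± 0.09 in wild type (log2, SD, n = 3). The 3 Cyp4p genes were also higher in mutants, with changes of 0.28 to 0.81, and Cyp4p1 and Cyp4p3 passed with the block.

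**Figure D4:**
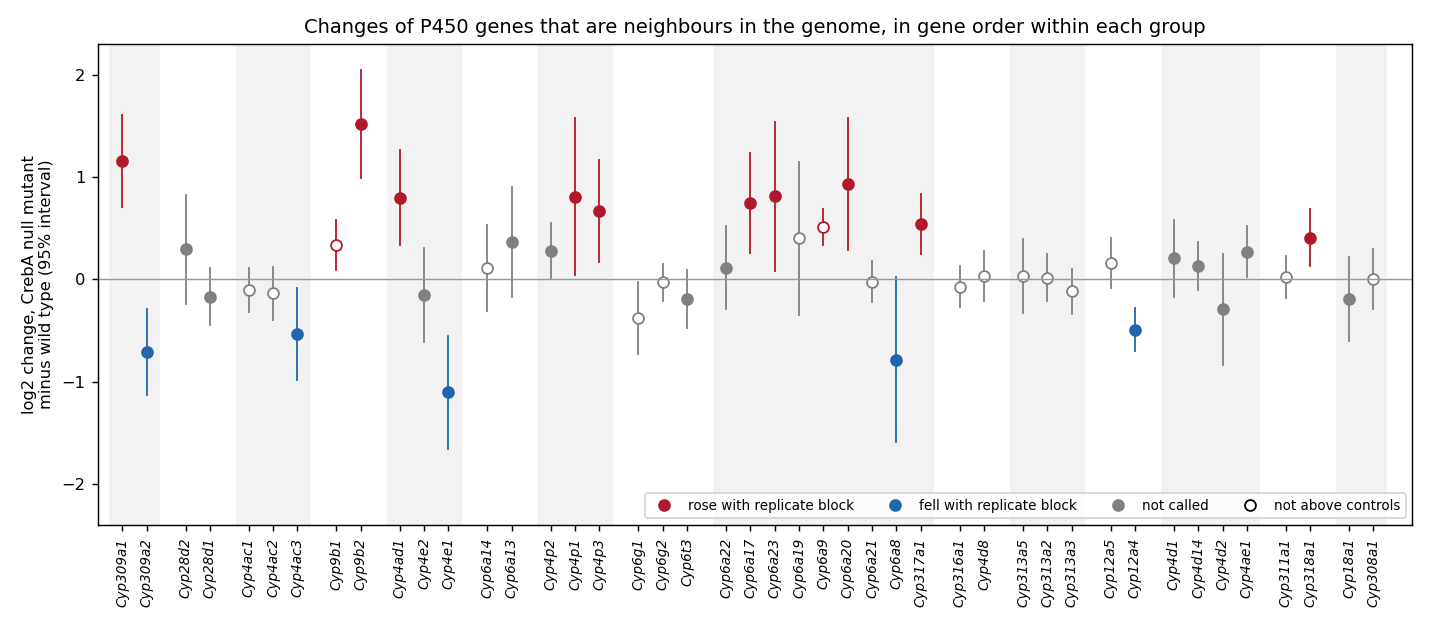
Log2 change, CrebA null mutant minus wild type, with its 95% interval, for 44 P450 genes in 15 groups of neighbours (shaded bands), in gene order within each group. Red points rose and blue points fell with the replicate block, grey points were not called, and open points were not above the foreign controls. Cyp309a1 and Cyp309a2, Cyp4ad1 and Cyp4e1, and Cyp6a20 and Cyp6a8 lie on opposite sides of 0.

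Partners of the P450 enzymes were looked at from lists of redox partners, haem synthesis and regulators. Of 7 haem synthesis genes measured 1 rose (against 1.90% of all genes), Alas, which encodes the first enzyme of the pathway. Alas had log2 values of 10.12, 10.25 and 10.49 in mutants, against 9.37, 9.59 and 9.56 in wild type, with no overlap. The change of Alas was 0.78 (SE 0.12, limma adjusted p 0.0381), while Pbgs, the next enzyme, had a change of 0.01 (SE 0.31). The median over the 7 genes was 0.18, and with the block Alas was the 1 gene called. Over all genes the block called 12.6% risen and 9.21% fallen. Of 7 genes listed as redox partners 5 were measured, and Cpr and dare were matched to no gene analysed here. Of the 5 limma called 0, with 1 at an unadjusted p under 0.05 (against 17.7% of all genes). The block called 1 of the 5 fallen, CG6870 (-0.71, SE 0.19). Cyt-b5 and Fdx2 had changes of 0.10 (SE 0.20) and -0.02 (SE 0.17). Of 6 regulators of the xenobiotic response limma called 0, with 1 at an unadjusted p under 0.05, maf-S (change 0.44, SE 0.15), which rose with the block. Another regulator, tgo, had a change of -0.32 (SE 0.37).

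The Halloween genes of ecdysteroid synthesis, most of them P450 genes under names of their own, were outside the rule. Among 7 measured 1 rose (against 1.90% of all genes), dib, which encodes the mitochondrial 22-hydroxylase. The values of dib were 6.32, 6.55 and 6.44 in mutants, against 5.72, 5.58 and 5.52 in wild type (log2 change 0.83, SE 0.10, limma adjusted p 0.0203). With the block 2 rose, dib and spo (against 12.6% of all genes), and 1 fell, shd (against 9.21%). The gene spo lay within the controls on all 3 wild-type arrays (5.65 ± 0.11 in mutants and 4.33 ± 0.48 in wild type, log2, SD, n = 3, limma adjusted p 0.0555).

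Markers of tissues that express P450 genes moved in part. The summed linear signal of 6 tubule and hindgut markers was 6232 to 7552 in mutants and 4798 to 5861 in wild type, and 1 of them rose, VhaSFD (against 1.90% of all genes). Most of that signal came from VhaSFD and Vha55, which encode proton pump subunits, while the log2 changes of drm, cad, Irk3 and byn were -0.22, 0.0012, -0.43 and 0.33. That of 6 midgut markers was 1761 to 2387 in mutants and 3801 to 4417 in wild type. Of the 6, 2 rose (alphaTry and Jon25Bi) and mex1 fell, against 1.90% of all genes risen and 1.02% fallen. The lower midgut sum came from mex1, at 7.58 ± 0.33 in mutants and 11.42 ± 0.31 in wild type (log2, SD, n = 3), and the median log2 change of the 6 markers was 0.46. That of 4 muscle markers was 18204 to 24326 in mutants and 12161 to 18141 in wild type, with 0 called. Summed signals overlapped between genotypes for 6 oenocyte markers (1616 to 2050 in mutants and 1925 to 2527 in wild type, 0 called), 5 fat body markers (1 fell, Mtp), 6 tracheal, 7 epidermal and 5 neuronal markers (0 called each). At an unadjusted p under 0.05 there were 4 midgut, 3 epidermal, 1 tracheal and 0 neuronal markers, against 17.7% of all genes. There were 2 each of the muscle, oenocyte, fat body, and tubule and hindgut markers. No marker measured was within the controls on all mutant arrays, and 1 epidermal marker, ple, was so on all wild-type arrays. With the block 3 tubule and hindgut, 3 midgut, 4 muscle and 2 epidermal markers rose, and 1 midgut, 1 oenocyte, 1 fat body, 2 tracheal and 2 epidermal markers fell, against 12.6% of all genes risen and 9.21% fallen. Their part in the P450 differences was not tested.

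The 2 cyclophilin genes caught by the symbol rule were not called. Cyp1 averaged 13.33 ± 0.11 in mutants and 13.34 ± 0.16 in wild type, and Cyp40 averaged 7.91 ± 0.11 in mutants and 7.51 ± 0.45 in wild type (log2, SD, n = 3).

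**Figure D5:**
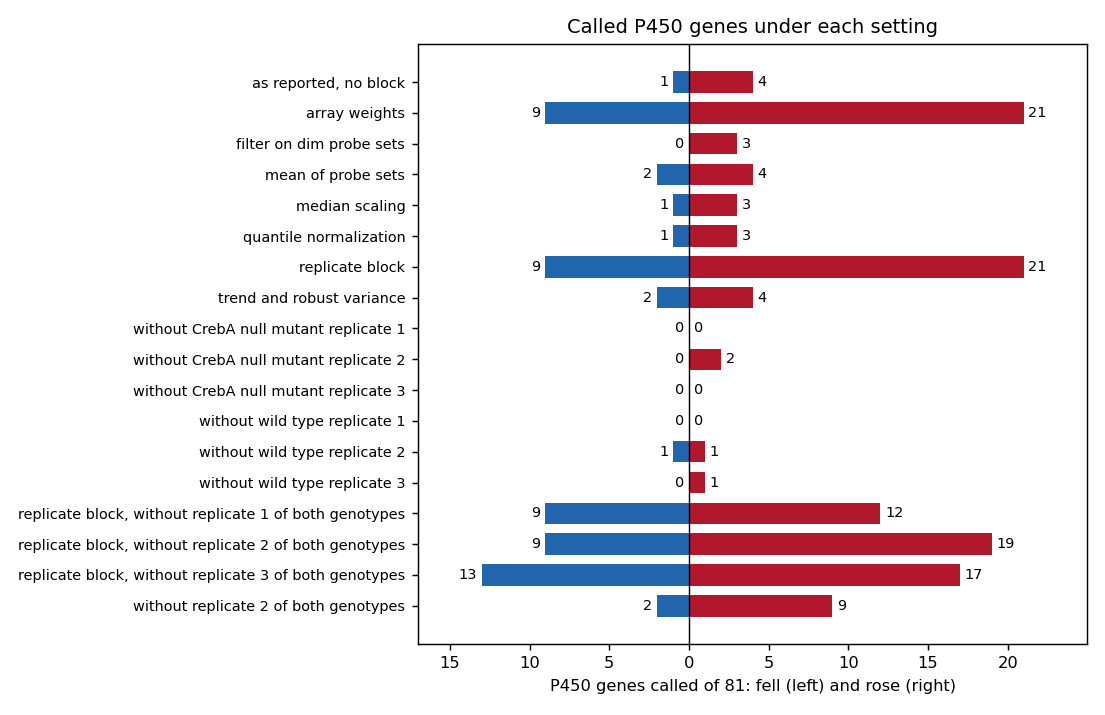
Number of the 81 P450 genes that rose (red, to the right) and fell (blue, to the left) in CrebA null mutants at a limma adjusted p under 0.05 under each setting. The counts were 0 in both directions without CrebA null mutant replicate 1 or 3 or wild type replicate 1, and 21 risen and 9 fallen with the replicate block or with array weights. The block without replicate 3 of both genotypes gave 13 fallen genes, and the filter on dim probe sets tested 50 of the 81.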

How the data were processed

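The authors deposited RMA expression values per probe set, taken here to be on a log2 scale from their range. The submitters' processing notes name RMA and Partek, and versions and filters are not given in the sources used here. RNA extraction used TriZol and an RNeasy kit and labelling an IVT kit for 3' ends, per the labels' protocols.

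Of 18769 probe sets other than 183 controls, 13647 had 1 gene symbol in the platform annotation, 402 had several and 4720 had none. All 81 P450 symbols matched RefSeq Release 6 by gene ID and symbol, which gave the gene order. No coordinates are printed because no build is named for the values. Gene clans were assigned by family number. No sequences were used here.

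CrebA null mutant was compared with wild type by lmFit and eBayes of limma 3.58.1 (R 4.3.3) over all 18769 probe sets, two-sided with Benjamini-Hochberg adjustment, without further normalization or filter. Deviations from genotype means correlated between arrays of the same replicate number (r of 0.639, 0.852 and 0.563). A fit with the number as a block is given beside results it changes, and no threshold of r for doing so is stated here. The r values are not independent, since the deviations of a genotype are taken from its own mean. A shift of replicate 2 shared by both genotypes also raises r for numbers 1 and 3. The r values for numbers 1 and 3 therefore cannot show by themselves that these arrays pair. Whether arrays of different numbers correlated less is not reported here. No label says that the numbers mark shared collections. Where all arrays of a genotype lay within the foreign controls, a fold was taken against the highest control on each array as a lower bound.

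The P450 genes named were those called, those called with the block at a change of 2-fold or more, the 8 with the largest change above the controls, the 8 brightest and a list with known roles. Others are named for a call with the block or as neighbours, after their values were seen. The members and lists were chosen with earlier results of these data known. Scripts were tested on simulated arrays. Figures were drawn with matplotlib 3.10.9 (python 3.11.15). Alternatives were a filter on dim probe sets, 2 scalings, a trended robust variance, array weights, the block, leaving out arrays and averaging probe sets, with fits without 1 replicate number in both genotypes added after the data were seen.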

Additional observations from a re-analysis of the deposited data

How the results depend on the processing

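With 4 risen and 1 fallen as reported, the replicate block gave 21 and 9, and array weights 21 and 9, of which 26 of 30 genes were shared with the block. Fewer arrays gave 0 to 2 risen and 0 to 1 fallen when 1 array was left out (23 to 33 genes at an unadjusted limma p under 0.05). Without replicate 2 of both genotypes 9 rose and 2 fell. With the block and without replicate 1, 2 or 3 of both genotypes, alternatives added after the data were seen, 12, 19 and 17 rose and 9, 9 and 13 fell, and 21 of the 30 genes called with the block were called in all 3 of these fits. The filter on dim probe sets left 50 P450 genes tested, with 3 risen, 0 fallen and 25 at an unadjusted limma p under 0.05. The median change was 0.12 rather than 0.04, taken over the brighter genes that were kept. Averaging probe sets and the trended robust variance gave 2 fallen genes each, Cyp12d1-d and Cyp12a4. Cyp12a4 had a log2 change of -0.49 in both fits, with limma adjusted p-values of 0.0492 and 0.0373. Scaling on array medians turned the median change to -0.02. Among the genes named, a sign turned for Cyp4d21, which lay within the controls (changes of -0.05 to 0.07 over 16 alternatives), and for Cyp304a1, whose change of -0.00055 became 0.0192 with quantile normalization, 0.0481 and 0.0196 with the block and without replicate 1 or 2 of both genotypes, 0.0196 without replicate 2 of both and with no block, and -0.0767 to 0.0975 without 1 array. The foreign controls limit what can be said of the 31 P450 genes not above them on every array of either genotype.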
